A study of Mus musculus with 2 samples.

Results

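The STAT transcription factors (signal transducers and activators of transcription) were examined through 6 mouse genes, Stat2, Stat3, Stat4, Stat5a, Stat5b and Stat6, chosen by gene symbol from the 23238 symbols of the deposited read count tables. Each symbol occurred once in each table, and all 6 genes passed the floor of 50 reads in at least 1 library that 10469 genes passed. The cells were BMDCs, dendritic cells derived in culture from the bone marrow of female C57BL/6 mice aged 7 weeks; dendritic cells take up antigen and present it to T cells. Both cultures were grown with GM-CSF at 20 ng/ml, added again on day 3, and the immature cells that floated or adhered loosely were taken on day 6. One library was a control, whose handling the labels do not describe, and the other came from cells given UNE-C1 at 100 nM over 24 h. This protein fragment, a domain found in cysteinyl-tRNA synthetase, is known to bind TLR2 and TLR6 (Toll-like receptors), and the comparison asks which signalling molecules it induces. No genetic change is named in either group, and the labels do not say how many animals gave the marrow. With 1 library in each group there was no replicate error, so no test was made, every difference is a difference between these libraries, and all intervals cover counting error only.

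STAT proteins wait in the cytoplasm until a Janus kinase bound to an activated cytokine receptor phosphorylates them on a tyrosine, after which they pair up, enter the nucleus and bind DNA. Stat2 works in the complex ISGF3, which the type I and type III interferons activate and which binds the interferon-stimulated response element. Stat3 serves the IL-6 and IL-10 families, Stat4 serves IL-12, IL-23 and type I interferon, Stat5a and Stat5b serve GM-CSF and the cytokines of the common gamma chain, and Stat6 serves IL-4 and IL-13. The GM-CSF in these cultures is itself a Stat5 stimulus. A transcript count does not show whether a STAT protein was phosphorylated.

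The stretches upstream of the start sites of the 3 members with at least 2-fold more signal under UNE-C1 are printed here, since several STAT genes are known to be interferon targets themselves. They are the 250 bases before a RefSeq start site (GRCm38.p6, 5′ to 3′ on the strand of the gene): chr10:128270248-128270497 on the plus strand for Stat2, chr1:52007990-52008239 on the plus strand for an internal start site of Stat4, and chr11:100939541-100939790 on the minus strand for Stat3. No annotated exon overlaps these stretches in GENCODE M21; that of Stat4 lies in an intron of the gene and the others lie between genes. Capitals mark matches, on either strand, to 2 kinds of motif. The first is GAAA followed, after any 2 bases, by GAAA, the core of the interferon-stimulated response element. The second is TTC followed, after any 3 or any 4 bases, by GAA, the forms of the gamma-activated site that STAT pairs bind.
Stat2: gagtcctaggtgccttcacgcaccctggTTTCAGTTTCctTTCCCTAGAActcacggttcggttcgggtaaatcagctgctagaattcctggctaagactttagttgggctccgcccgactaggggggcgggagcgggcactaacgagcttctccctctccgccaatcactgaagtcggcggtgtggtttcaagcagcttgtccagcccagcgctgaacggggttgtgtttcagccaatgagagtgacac
Stat4: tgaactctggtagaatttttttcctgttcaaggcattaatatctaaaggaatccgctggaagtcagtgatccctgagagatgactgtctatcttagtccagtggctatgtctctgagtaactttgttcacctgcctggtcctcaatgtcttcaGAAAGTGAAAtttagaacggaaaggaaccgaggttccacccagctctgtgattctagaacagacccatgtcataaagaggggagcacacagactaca
Stat3: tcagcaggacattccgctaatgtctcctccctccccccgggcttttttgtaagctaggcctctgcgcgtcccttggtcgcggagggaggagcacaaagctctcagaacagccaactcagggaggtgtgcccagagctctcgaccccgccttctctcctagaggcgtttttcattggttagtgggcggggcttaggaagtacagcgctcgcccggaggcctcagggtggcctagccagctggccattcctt

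The Stat2 stretch held matches to both kinds of element. The first was TTTCAGTTTC, the response element on the opposite strand, from position -222 to -213 relative to the start site, and the second was TTCCCTAGAA, a gamma-activated site with 4 bases between its arms, from -210 to -201. The Stat4 stretch held GAAAGTGAAA from -97 to -88. Only this window of Stat4 is printed, and it is the window with a match. Whether its start site was used in these cells was not tested. No match was found in the Stat3 stretch, in the window of the first Stat4 start site, or in the windows of Stat5a, Stat5b and Stat6; these letters are not in those 300 bases, which says nothing more. All 6 members had a window, 9 windows in all. Among all 32851 RefSeq windows of 300 bases, 3.44% held the response element core, 8.30% the gamma-activated site with a spacer of 3 bases and 6.95% that with a spacer of 4. A match is a description of the letters and not a measured binding site.

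The libraries held 14857198 reads (control) and 15975821 reads (UNE-C1). In a bulk library fewer cells of a type and less RNA per cell cannot be told apart. Markers of the labelled cells were present, and not all stayed level. The 11 dendritic cell markers past the floor had a median log2 fold change of -0.14, with 1 at least 2-fold higher and 2 lower. Of all genes past the floor, 9.31% were at least 2-fold higher and 9.42% lower, shares to set beside each marker count here. The dendritic counts of 1 and 2 are not read as a result about that list. Itgax (CD11c) was lower (759 and 246 CPM), as was Clec9a (175 and 34 reads), and Xcr1 was higher (54 and 189 reads). Clec9a and Xcr1 are genes of type 1 dendritic cells, and Clec9a passed the floor only through the control library. Flt3 had 143 and 62 reads, Zbtb46 had 62 in both, and Ccr7 stood at 304 and 439 CPM. The class II genes H2-Aa, H2-Ab1 and Cd74 stood between 2594 and 5395 CPM in both libraries, and Cd209a had 0 reads in both. All 10 measured neutrophil markers were at least 2-fold lower (summed level 8304 and 3208 CPM). Mpo (95 and 13 reads) and Elane (106 and 6 reads) passed the floor only through the control library, which favoured their lower calls. Of 10 monocyte and macrophage markers past the floor 3 were higher and 4 lower (4747 and 4784 CPM summed over the 11 listed). Of 5 mast cell, basophil and eosinophil markers past the floor 2 were lower (1213 and 797 CPM summed over the 8 listed). Of 3 plasmacytoid markers 1 was higher, the interferon-stimulated Bst2, and Siglech had 9 and 0 reads. No B cell marker passed the floor, and of 4 stromal markers only Dcn did (6 and 161 reads), through the UNE-C1 library alone. The part of these shifts in the Stat values given next was not tested. CPM here is the read count scaled to an effective library size from TMM.

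Stat2 had the largest difference of the family. Its gene spans 128270559 to 128292849 of chromosome 10, plus strand; positions of genes are those of GENCODE M21 on GRCm38. The control library held 773 Stat2 reads and the UNE-C1 library 4638. Its levels were 46.2 CPM (control) and 327 CPM (UNE-C1), a ratio of 7.08 (exact 95% interval 6.56 to 7.65). On the log2(CPM + 1) scale the fold change was 2.80, and 148 of the 10469 genes (1.41%) had a higher one. In the control Stat2 ranked 3287th among these genes by CPM, and in the UNE-C1 library it ranked 499th.

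Stat3, on chromosome 11 from 100885098 to 100939540 on the minus strand, was the most abundant member in both libraries. Its reads numbered 4386 (control) and 8969 (UNE-C1), or 262 and 632 CPM. The ratio was 2.41 (2.33 to 2.50) and the log2 fold change 1.27. Stat4 (chromosome 1, 51987148 to 52107189, plus strand) went from 443 to 1001 reads. Its levels were 26.5 and 70.6 CPM, which gave a ratio of 2.67 (2.38 to 2.99) and 1.38 on the log2 scale. Stat3 and Stat4 thus differed by a similar factor from levels that lay far apart: the number of Stat3 reads per Stat4 read was 9.90 (control) and 8.96 (UNE-C1).

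The Stat5 pair and Stat6 differed less. Stat5a (chromosome 11, 100859351 to 100885169, plus strand) had 438 and 501 reads (26.2 and 35.3 CPM, ratio 1.35, interval 1.18 to 1.54). Stat5b, its close relative on chromosome 11 from 100780731 to 100850724 on the minus strand, had 484 and 513 reads (28.9 and 36.2 CPM, ratio 1.25, 1.102 to 1.42). Stat6 (chromosome 10, 127642986 to 127660957, plus strand) had 1679 and 1620 reads (100.3 and 114 CPM, ratio 1.14, 1.06 to 1.22). Their log2 fold changes were 0.42, 0.31 and 0.19, where the quartiles of all genes were -0.44 and 0.41. Stat5a thus stood just above the upper quartile, and Stat5b and Stat6 between the quartiles.

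**Figure D1:**
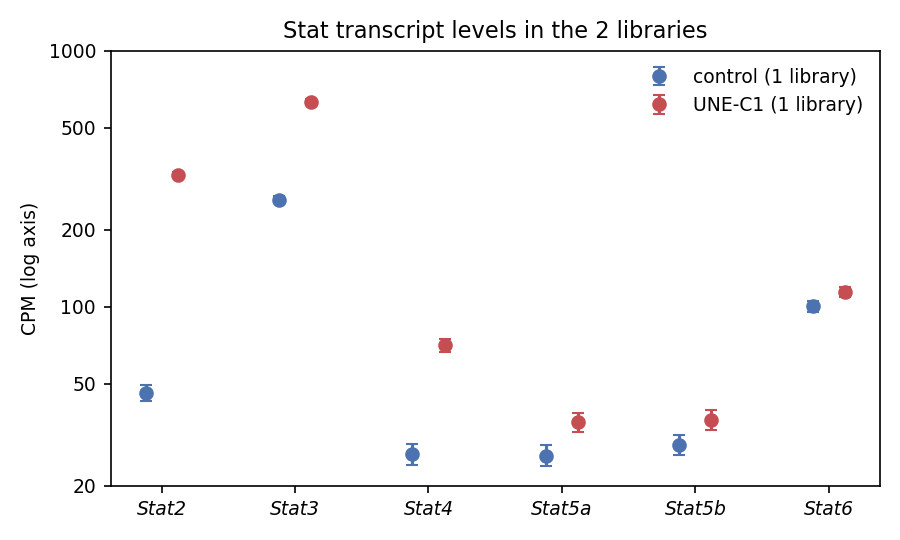
Level of each Stat gene in CPM (log axis) in the control and UNE-C1 libraries, 1 library each, with exact Poisson 95% intervals that cover counting error only. Stat2 goes from 46.2 to 327 CPM and passes Stat6, while the 2 points of each of Stat5a, Stat5b and Stat6 lie close together.

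Of the 6 members, 3 were at least 2-fold higher on the log2(CPM + 1) scale (Stat2, Stat3 and Stat4) and 0 at least 2-fold lower. The background was 9.31% of genes at least 2-fold higher (975 of 10469) and 9.42% at least 2-fold lower (986). All 6 members were above 0, against 49.6% of all genes, and their median was 0.84 against -0.00 for all genes. These values depend on how the libraries are scaled. Scaled by total counts, the median of all genes was -0.33, 657 genes (6.28%) passed 2-fold upward and 1693 (16.2%) downward, and every member moved down too. Stat3 then stood at 0.93, below the 2-fold line, Stat4 at 1.05 and Stat2 at 2.46. Stat5a stood at 0.09, and Stat5b and Stat6 turned below 0, at -0.02 and -0.15. The Stat5a ratio was then 1.06 (interval 0.934 to 1.21) and that of Stat5b 0.986 (0.869 to 1.12), and both intervals hold 1. The Stat6 ratio was 0.897 (0.838 to 0.961), below 1, where its TMM interval of 1.06 to 1.22 lay above 1. The directions of Stat5a, Stat5b and Stat6 are therefore not settled by these data. All of them stood above the median gene, a place that scaling hardly changes because it moves all genes nearly alike.

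**Figure D2:**
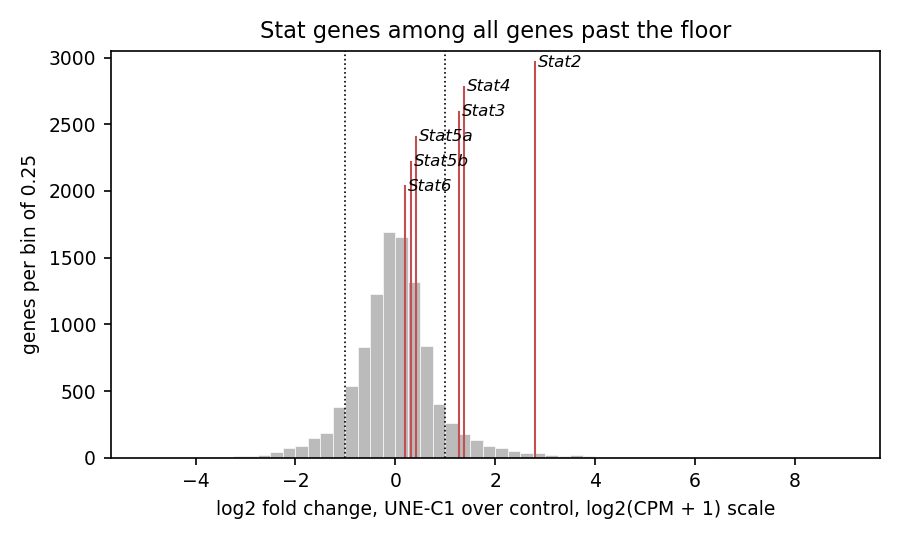
Histogram of the log2 fold changes of the 10469 genes past the floor, with the 6 Stat genes as red lines whose heights carry no value and dotted lines at 2-fold. Stat2 stands at 2.80 in the upper tail, Stat3 and Stat4 at 1.27 and 1.38, and the other genes near the centre.

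**Figure D3:**
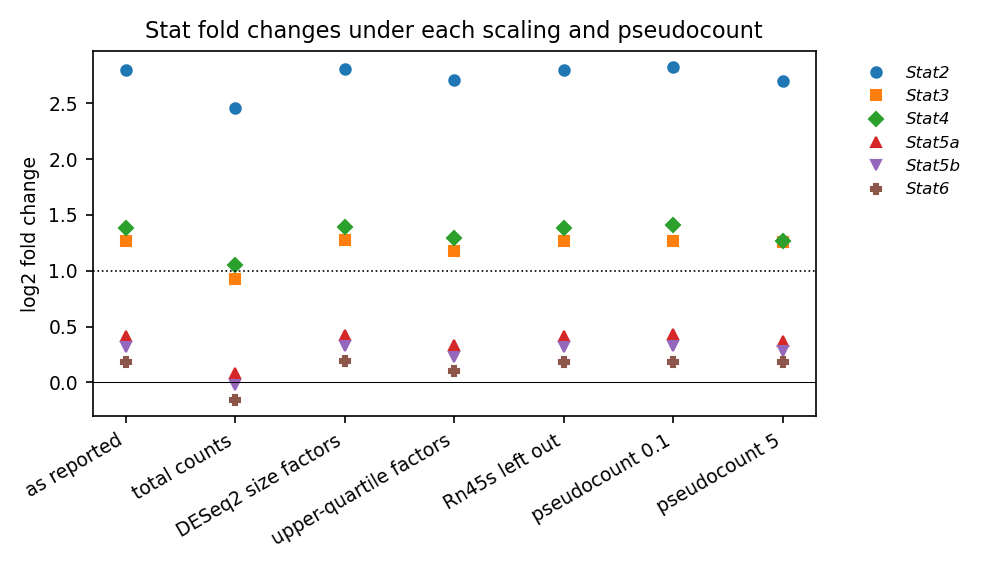
Log2 fold change of each Stat gene as reported and under each other scaling or pseudocount, with a dotted line at 2-fold. Stat2 stands highest and Stat6 lowest under each setting, and total counts move all 6 genes down, Stat5b and Stat6 to below 0.

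The make-up of the Stat reads does not depend on library scaling. The 6 genes together had 8203 control reads and 17242 UNE-C1 reads. Stat2 made up 9.42% of them in the control (exact binomial 95% interval 8.80 to 10.1) and 26.9% in the UNE-C1 library (26.2 to 27.6). Stat6 made up 20.5% (19.6 to 21.4) and 9.40% (8.96 to 9.84). Stat2 and Stat6 thus changed places in the order behind Stat3. The largest share was that of Stat3 in both, 53.5% (52.4 to 54.6) and 52.0% (51.3 to 52.8). Stat4 held 5.40% (4.92 to 5.91) and 5.81% (5.46 to 6.17). Stat5a went from 5.34% to 2.91% and Stat5b from 5.90% to 2.98%, with intervals that did not overlap between the libraries. The family's reads were thus divided differently in the UNE-C1 library, with a larger share on Stat2 and smaller shares on Stat6 and the Stat5 pair. A smaller share is not a smaller count: Stat5a had 438 and 501 reads and Stat5b 484 and 513.

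**Figure D4:**
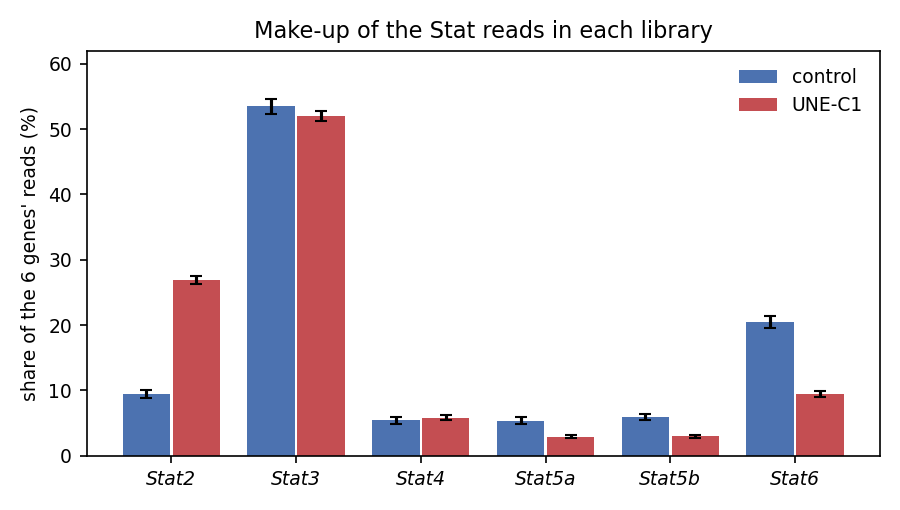
Share of the reads of the 6 Stat genes that fell on each gene, in percent, in each library, with exact binomial 95% intervals. The Stat2 bar goes from 9.42% to 26.9% and the Stat6 bar from 20.5% to 9.40%, while the Stat3 bars stay above 50%.

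Ratios between pairs of members are likewise free of library scaling. The number of Stat2 reads per Stat6 read was 0.460 (control) and 2.86 (UNE-C1), a 6.22-fold change of the ratio (exact conditional interval 5.61 to 6.90). The Stat2 to Stat3 ratio went from 0.176 to 0.517, a 2.93-fold change (2.70 to 3.20). Of the 15 pairs, 12 had an interval that left out 1. The 3 that did not were Stat3 to Stat4 (change 0.905, 0.803 to 1.02), Stat5a to Stat5b (1.08, 0.899 to 1.30) and Stat5b to Stat6 (1.099, 0.951 to 1.27). In these 3 pairs the change of the ratio was within counting error. With 1 library in each group, a difference in response could not be tested for any of the 15 pairs.

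The order of the members by level followed from these values. The library kit reads transcripts near their 3′ end, so a transcript gives a similar number of reads whatever its length, and CPM was not divided by length. In the control the order was Stat3, Stat6, Stat2, Stat5b, Stat4 and Stat5a, and Stat5b, Stat4 and Stat5a had overlapping intervals (26.4 to 31.6, 24.1 to 29.1 and 23.8 to 28.7 CPM). In the UNE-C1 library it was Stat3, Stat2, Stat6, Stat4, Stat5b and Stat5a, and the last pair overlapped (33.1 to 39.4 and 32.3 to 38.6 CPM).

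Some of these reads have an uncertain origin. The 3′ ends of Stat3 and Stat5a face each other and overlap by 72 bases, and those of Stat6 and Nab2, a transcriptional corepressor gene, overlap by 40. In the last 400 bases of the longest coding Stat5a transcript, 43 of 371 words of 30 bases also lay on the opposite strand of Stat3 transcripts, and 11 of 371 in Stat6 lay opposite Nab2. Whether the counting used strand is not given in the sources, so reads from those bases cannot be told apart. Gm28177, a noncoding gene on the same strand as Stat4, shares 1033 exonic bases with it, so strand could not separate reads from those bases, and it was not analysed here. None of the 371 words at the 3′ end of Stat4 occurred in another gene on either strand. Between members no word was shared on the same strand, Stat5a and Stat5b included. In Stat3, 46 of the 371 words occurred on the opposite strand of some other gene, Stat5a included, and 3 on the same strand. Reads on Nab2 numbered 970 and 726, a ratio of 0.883 (0.801 to 0.973), so Nab2 and Stat6 stood on different sides of 1 with TMM.

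The genes whose levels lay nearest to each member were found by the Euclidean distance in log2(CPM + 1) over the 2 libraries. For Stat2 they were Ier3 (distance 0.036, 789 and 4705 reads), Nt5c3 (0.112) and Gbp7 (0.133). For Stat3 they were Ehd1 (0.076), Cyb5a (0.131) and Psme2b (0.155), and for Stat4 Hexdc (0.014), Pafah1b3 (0.064) and Tigd2 (0.088). Stat5a lay nearest to Bmi1 (0.025), Ago1 (0.029) and Stx5a (0.032), Stat5b to Plxnb2 (0.018), Arfrp1 (0.023) and Spg11 (0.034), and Stat6 to Lhfpl2 (0.032), Pptc7 (0.035) and Inppl1 (0.035). With 2 libraries, nearness says only that 2 pairs of levels were alike.

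Of the Janus kinases that phosphorylate STATs, 1 of 4 was at least 2-fold higher and none lower (median log2 fold change 0.65). Of all genes past the floor, 9.31% were higher and 9.42% lower, shares to set beside this and the following list counts. A count of 1 on so short a list is not read further. Jak2, the kinase of the GM-CSF and IL-12 receptors, had 2162 and 4608 reads (129 and 325 CPM, ratio 2.51, interval 2.39 to 2.65), a ratio near those of Stat3 and Stat4; with total counts its log2 fold change was 0.98. Jak1, the most abundant of the 4, went from 388 to 578 CPM (ratio 1.49). Tyk2, which serves the interferon and IL-12 receptors, had a ratio of 1.49 and Jak3, the partner of the common gamma chain, 1.73 on 150 and 220 reads.

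Receptor chains that feed the STATs did not differ in 1 direction. Their counts stand beside 9.31% of all genes higher and 9.42% lower. Of the 4 measured chains upstream of Stat2, Ifnar2 was at least 2-fold higher (131 and 308 CPM, ratio 2.35, interval 2.24 to 2.48; log2 fold change 0.89 with total counts) and Ifnlr1, the type III interferon chain, lower (136 and 38 reads, 3.03-fold, 2.10 to 4.47). The Ifnlr1 call was lost at a pseudocount of 5, and the gene did not reach 200 reads. Ifnlr1 passed the floor only through the control library, which favoured its lower call. Ifnar1, the partner of Ifnar2, had a ratio of 1.01 (0.936 to 1.09), and Il10rb one of 1.15. Upstream of Stat3, 0 of 7 chains were at least 2-fold higher and 1 lower, Il11ra1 (231 and 87.3 CPM). The other chains described were Il21r (log2 fold change 0.94), Il10ra (0.24), Il10rb (0.20) and Csf3r, the G-CSF receptor (-0.86). Csf3r (97 and 39 reads) passed the floor only through the control library, which favoured a low value. The list's median was -0.24. Upstream of Stat4, 2 of 3 chains passed the floor, and only through their UNE-C1 reads, so the filter itself fixed that these would be high there and their count and median show nothing more. Il23r had 25 and 162 reads (ratio 7.64, 4.997 to 12.2), and Il12rb1 had 3 and 51 (20.1, 6.49 to 100.5). Il12rb2, the chain of the IL-12 receptor that binds Stat4, had 7 and 6 reads, below the floor. At a pseudocount of 5 only 1 of the chains stayed 2-fold higher, and no chain reached 200 reads.

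Upstream of Stat5, 1 of 7 chains was at least 2-fold higher and 1 lower (median 0.35), beside 9.31% and 9.42% of all genes. Il2ra, the alpha chain of the IL-2 receptor, went from 16.4 to 79.6 CPM (ratio 4.86, interval 4.26 to 5.57). The chains of the GM-CSF receptor differed from each other: Csf2rb, the shared signalling chain, had a log2 fold change of 0.38, and Csf2ra, the ligand-binding chain, one of -1.26. Il7r stood at 0.66 and Il3ra at -0.15. Upstream of Stat6, 2 of 3 were higher, Il13ra1 (17.4 and 74.1 CPM, ratio 4.26, 3.74 to 4.87) and Il4ra (110 and 300.3 CPM), with Il2rg at 0.35 and a median of 1.44. Of the listed chains, Il13ra1 and Il4ra thus differed by more than 2-fold, and Stat6 itself did not.

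Of 8 partners and coactivators, 1 was at least 2-fold higher and none lower (median 0.33, and -0.01 with total counts). Over all genes these shares were 9.31% and 9.42%, so the count of 1 is not read as a result about the list. The higher gene is described next. It was Nmi, a protein that binds STATs (22.3 and 60.1 CPM, ratio 2.69, interval 2.38 to 3.05). Irf9, the DNA-binding partner of Stat2 in ISGF3, had 1680 and 2363 reads and a ratio of 1.66 (1.56 to 1.77), well under the 7.08 of Stat2. Kat2b, a histone acetyltransferase, stood at 0.81, the acetyltransferase Ep300 at 0.22 and Ncoa3 at -0.00.

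Of 20 inhibitors of STAT signalling, 5 were at least 2-fold higher and none lower (median 0.16, and -0.17 with total counts, where 2 were lower, Socs5 and Socs6). Over all genes 9.31% were higher and 9.42% lower. The SOCS proteins block Janus kinases and receptors and are themselves STAT targets. Socs1 went from 103 to 1812 reads (ratio 20.8, interval 17.0 to 25.6) and Socs3, the inhibitor of gp130 signalling, from 360 to 2900 (9.50, 8.51 to 10.6). Usp18, which restrains the interferon receptor at Ifnar2, went from 28.9 to 351 CPM (12.2, 11.1 to 13.4). The remaining higher genes, named after their values were seen, were Cish, a feedback inhibitor of Stat5 (109 and 368 reads), and the phosphatase Ptpn1 (518 and 1517 CPM, ratio 2.93). Socs5 and Socs6 were lowest, at -0.85 and -0.80. Socs5 (109 and 45 reads) passed the floor only through the control library, which favoured its lower call with total counts.

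Lists of genes known as targets of each STAT are described last. They were written from general knowledge but with earlier results of these data known, so their counts are a description only. The lists share members and say nothing of which factor acted. The share over all genes was 9.31% higher and 9.42% lower. On the Stat2 list 18 of 19 genes reached 2-fold higher and none 2-fold lower, with a median of 3.56. Its range ran from Irf9 at 0.72 and Eif2ak2, the double-stranded RNA kinase, at 1.55 to Ifit3 at 5.48, Oasl1 at 6.31 and Rsad2 at 6.59. On the Stat3 list 9 of 19 were higher and 3 lower (median 0.97). Saa3, an acute-phase protein, Socs3 and Il10 were highest, at 4.45, 3.19 and 2.39, Il10 on 2 and 69 reads, so that it passed the floor only through the UNE-C1 library. Fos stood at -1.61 and Myc at -2.56, on 96 and 2 reads (ratio 0.025, 0.0029 to 0.091). Myc passed the floor only through the control library, which favoured its lower call.

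On the Stat4 list none of the 4 genes past the floor was at least 2-fold higher and 2 were lower, with a median of -0.68. Over all genes 9.31% were higher and 9.42% lower. Both lower calls were lost at a pseudocount of 5 and where 200 reads were required, and the median was 0.41 under the latter and -0.07 with no floor. Furin, a protease, stood at 0.97 and Hlx, a homeobox factor, at -0.14. The IL-18 receptor chains Il18r1 (122 and 17 reads) and Il18rap (167 and 53 reads) stood at -1.92 and -1.21. Il18r1 passed the floor only through the control library, which favoured its lower call. Ifng had 0 and 2 reads and Tbx21 none in either library, where a count of 0 allows up to 3 reads. Markers of T and natural killer cells, in which Stat4 is best known, had few reads. None of the 11 measured passed the floor, their summed levels were 4.78 CPM (control) and 1.97 CPM (UNE-C1), and Cd3e, Gzma, Prf1 and Eomes had 0 reads in both. Cd8a had 35 and 13 reads, Cd4 had 19 and 6, and Klrb1c had 18 and 0. Which cells gave the Stat4 reads (26.5 and 70.6 CPM) was not tested.

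On the Stat5 list 7 of 11 genes stood at least 2-fold up and 1 down (median 1.23), beside 9.31% and 9.42% of all genes. Ccnd2, cyclin D2, went from 41.3 to 549 CPM (ratio 13.3, interval 12.3 to 14.4), followed by Il2ra and Cish at 2.21 and 1.84. Bcl2, a survival gene, was lower (571 and 170 reads, 2.85-fold, 2.39 to 3.399), and Bcl2l1 stood at 0.23. With total counts 4 of the 11 were at least 2-fold higher. On the Stat6 list 6 of 16 were higher and 4 lower, with a median of 0.37 that was 0.03 with total counts and -0.08 with no floor. Arg1, the arginase, stood at 6.45, the transglutaminase Tgm2 at 2.28 (265 and 1293 CPM) and the cholesterol hydroxylase Ch25h at 1.74 (36 and 135 reads). In the other direction Mrc1, the mannose receptor, stood at -3.56 and Pparg, a nuclear receptor, at -2.77 (226 and 16 reads, 11.97-fold lower, 7.21 to 21.3). Pparg passed the floor only through the control library and Ch25h only through the UNE-C1 library, which favoured their calls.

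**Figure D5:**
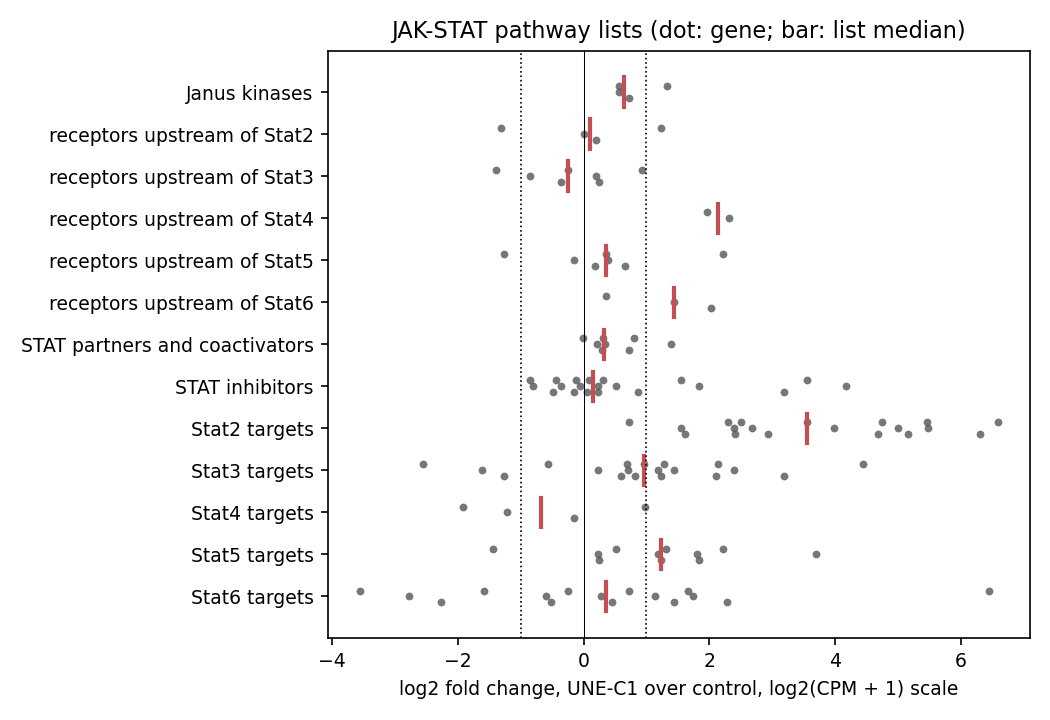
Log2 fold changes of the genes past the floor on the 13 pathway lists, with each list's median as a red bar and dotted lines at 2-fold. The Stat2 targets lie almost wholly to the right, while the Stat6 targets spread from -3.56 to 6.45.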

How the data were processed

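Each deposited file gives, for 1 library, unnormalized whole-number counts of reads by gene symbol; the unit was read from the values. Per the labels' protocols, libraries were made with a QuantSeq kit from 500 ng of total RNA, which reads transcripts near the 3′ end. Bowtie2, edgeR and the build mm10 are named, without role or version, in the submitters' processing notes; which tool counted reads, on which annotation and with which strand setting, the sources used here do not give. Repeated symbols were summed (35, none of them a Stat gene). CPM used TMM effective library sizes (factors 1.13 and 0.888; edgeR 4.0.16, R 4.3.3), and fold changes are UNE-C1 minus control on the log2(CPM + 1) scale, which understates low genes. Ratios are plain CPM ratios with exact conditional binomial 95% intervals (scipy 1.17.1). A gene counted as higher or lower at 2-fold if 1 library or both had 50 or more reads (2.99 and 3.52 CPM). For a gene that passed through 1 library only, this filter favours a call toward that library. No p-value was computed and no count model was fitted, for want of replicates. No molecular identifiers are described, so PCR copies count as reads. The steps were also run on simulated counts with counting error only and 200 changed genes. That setting has no variation between cultures and fewer changed genes than these data, so it does not test the choice of scaling.

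The members, the 13 pathway lists and the 8 marker lists were chosen with earlier results of these data known. Named genes are all members, the list genes past the floor (where over 5, the 3 highest and 2 lowest), and the 3 nearest genes of each member. Marker genes named by themselves, and genes named for a count of 0, for few reads or as the rest of a small count were picked after their values were seen. Positions are from GENCODE M21 and start-site windows from RefSeq (GRCm38.p6). Some results are not reported here. Other scalings (total counts, DESeq2 1.42.0 size factors, upper quartile, Rn45s left out), pseudocounts of 0.1 and 5 CPM and floors of 0 and 200 reads were tried.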

Additional observations from a re-analysis of the deposited data

How the results depend on the processing

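Each library is the only 1 of its group, so none could be left out. No paired analysis was possible because each group had a single library and no test was made. The count of Stat genes at least 2-fold higher was 3 under every alternative except total counts, where it was 2 (Stat3 dropped out), and 0 were lower under all of them. With total counts the log2 fold changes of Stat2, Stat3, Stat4, Stat5a, Stat5b and Stat6 were 2.46, 0.93, 1.05, 0.086, -0.020 and -0.15. With upper-quartile factors Stat2 stood at 2.71 and Stat3 at 1.18, and with a pseudocount of 5 Stat2 stood at 2.70. Under the other alternatives each member's value moved by less than its counting interval. Over all genes, the count at least 2-fold lower was 986 as reported, 1693 with total counts, 484 at pseudocount 5 and 579 where 200 reads were required. Of the 13 list medians, 3 changed sign with total counts (STAT inhibitors, partners and receptors upstream of Stat2), 1 with no floor (Stat6 targets) and 1 with a floor of 200 reads (Stat4 targets). Total counts shifted the list medians by -0.34 to -0.21 and left 4 of 7 Stat5 targets at least 2-fold higher; Jak2, Ifnar2, Mcl1, Pim1, Lcn2, Id2 and Ccl17 lost the call. Ifnlr1, Il12rb1, Il18r1, Il18rap and Il10 lost theirs at pseudocount 5 and where 200 reads were required. Il23r, Myc and Ch25h lost theirs where 200 reads were required.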

Other observations

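Some genes next to the Stat2, Stat3, Stat5a, Stat5b and Stat6 loci had their own values. Apof, which encodes an apolipoprotein and ends 405 bases before the annotated start of Stat2 on the same strand, had 0 control reads and 23 UNE-C1 reads, below the floor of 50 reads. Il23a, on the other side of Stat2 and on the opposite strand, had 2 and 1 reads. Around Stat3, Stat5a and Stat5b on chromosome 11, Ptrf (named Cavin1 in GENCODE M21), a gene of caveolae, had 152 and 129 reads (ratio 1.00, interval 0.786 to 1.27) and Ghdc had 131 and 170 (1.53, 1.21 to 1.94). Beside Stat6, the large endocytic receptor gene Lrp1 had a ratio of 0.796 (0.760 to 0.834) and Tmem194 (Nemp1 in GENCODE M21) one of 0.549 (0.380 to 0.783) on 101 and 47 reads. No test was possible for any of these differences.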
